A study of Drosophila melanogaster with 31 samples.

Results

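The genes cas, Osi3, CG42876, CG32640, CG6912, CG3984, Uros2, CG30428 and CG42826 were 9 of the 13821 Drosophila melanogaster genes measured here. They were chosen by their counts in antennae, being near 0 in the OreR strain and present in the Orco2 strain, so the size of that difference is a description of the choice and carries no test. All 9 are annotated as protein coding.

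RNA was sequenced from antennae (segments 2 and 3) of males aged 4 to 5 days (8 libraries) and from whole brains of OreR males aged 4 to 5, 10 or 25 days (23 libraries). OreR is a wild-type strain, and the other strain, labelled w*; TI{TI}Orco2, carries a mutation of the odorant co-receptor gene Orco and, by its name, an allele of the eye colour gene white. Each genotype had 2 antennal libraries from flies kept without odor and light (0 min) and 2 from flies exposed to both, for which the labels give 10, 20 and 30 min together. The brains were taken at 0, 10, 20, 30 or 45 min of stimulation at 4 to 5 days (3 libraries each) and at 0 or 30 min at 10 and 25 days (2 libraries each). Each genotype was 1 strain, so the Orco mutation, the white allele and all other differences between the strains cannot be told apart. Nothing in the labels says that replicates came from separate flies or days, so p-values measure the spread between these libraries.

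The Orco protein pairs with most odorant receptors of the fly, which depend on it to reach the cilia of olfactory neurons and to signal. The gene castor (cas) encodes a zinc finger transcription factor, known as one of the temporal factors that embryonic neural stem cells express in sequence. Osi3 belongs to the Osiris genes, an insect family of predicted membrane proteins that lies largely in 1 cluster and includes genes that shape the pores of olfactory hairs during development. Uros2 is named for uroporphyrinogen III synthase, an enzyme of heme synthesis. The other members carry only annotation numbers, and no role is given for them here.

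Orco itself stood at 1990 to 2040 normalised counts per 1000000 (CPM) in the 4 OreR antennal libraries and at 7.65 to 8.59 CPM in the 4 Orco2 libraries, as labelled. Library totals were 18.5 to 54.9 M counts (M for 1000000) in antennae and 19.3 to 76.7 M in brains, and 3 counts, used as the limit of detection, were worth 0.0549 to 0.163 CPM in antennae. The 10 antennal identity genes (among them Ir25a, lush and Or22a) summed to 16505 to 22222 CPM in OreR antennae, 13860 to 17521 CPM in Orco2 antennae and 9.54 to 20.5 CPM in brains. The list includes Orco; the other 9 summed to 14515 to 20183 CPM in OreR and 13853 to 17513 CPM in Orco2. Of the 10 genes 2 were called at 0 min in edgeR, against 5.36% of all genes tested, with Orco lower in Orco2. The other was Ir25a, an ionotropic co-receptor gene, which was higher (log2 0.99 ± 0.10; adjusted p = 0.0035). The median log2 difference of the 10 genes was -0.23. The 10 brain identity genes (among them Pdf and Ilp2) summed to 763 to 1360 CPM in brains and to no more than 26.3 CPM in any antenna. In bulk tissue a change in the number of cells of a type cannot be told apart from a change in RNA per cell.

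For cas, the OreR antennae had 1 and 1 counts at 0 min and 0 and 3 after stimulation, and the Orco2 antennae had 1957 and 1272 counts at 0 min and 2412 and 1700 after stimulation. In CPM, Orco2 libraries lay between 35.7 and 46.4 and OreR libraries between 0 and 0.0906. The pooled ratio was 819 at 0 min (95% counting interval 227 to 6767) and 825 after stimulation (282 to 4004). The OreR counts were at the limit of detection in every library, so these ratios rest on 5 OreR reads in all and the interval covers counting error only.

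Osi3 had 1 and 3 counts in OreR at 0 min, 32 and 9 in OreR after stimulation, 4491 and 1838 in Orco2 at 0 min, and 4894 and 2479 in Orco2 after stimulation. The Orco2 libraries ranged from 62.3 to 91.3 CPM. The ratio was 803 at 0 min (313 to 2947) and 108 after stimulation (79.7 to 151). The smaller ratio came with 1 OreR library, stimulated A, that stood at 1.51 CPM while the other 3 stood at 0.0514 to 0.272 CPM.

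Uros2 was the most abundant member. Its counts were 17 and 29 in OreR at 0 min, 15 and 53 in OreR after stimulation, 10926 and 5206 in Orco2 at 0 min, and 8639 and 6720 in Orco2 after stimulation. The Orco2 libraries lay between 161 and 199 CPM and the OreR libraries between 0.706 and 1.60 CPM, a ratio of 178 at 0 min (133 to 243) and 136 after stimulation (107 to 175). Uros2 was above the limit of detection in each OreR library, so it was low in OreR rather than undetected.

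CG6912 and CG3984 are neighbours on chromosome arm 3R that are transcribed away from each other, with 144 bp between their 5′ ends. CG6912 had 1 and 8 counts in OreR at 0 min, 16 and 11 after stimulation, 2859 and 1701 in Orco2 at 0 min, and 2835 and 1978 after stimulation. CG3984 had 7 and 10, then 17 and 15 in OreR, and 2163 and 1051, then 1995 and 1138 in Orco2. In the 4 Orco2 libraries CG6912 stood at 52.1 to 57.7 CPM and CG3984 at 31.0 to 39.5 CPM. That both genes of this divergent pair were high in the same libraries was fixed by the choice of members. Their ratios were 257 (135 to 563) and 95.9 (59.8 to 165) at 0 min, and 107 (73.7 to 163) and 59.0 (41.7 to 86.3) after stimulation.

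CG42876 had no count in 3 of the 4 OreR libraries and 2 counts in stimulated B, against 541 and 409 in Orco2 at 0 min and 294 and 180 in Orco2 after stimulation. It was at least 161-fold higher in Orco2 at 0 min, taking 3 counts over the OreR group as its limit, and 143-fold higher after stimulation (39.3 to 1182). CG30428 had 0, 3, 0 and 2 counts in OreR and 583, 317, 632 and 413 in Orco2, in the order 0 min A and B (Orco2 B and C) and stimulated A and B (B and C). Its ratio was 152 (51.9 to 739) at 0 min and 315 (86.9 to 2601) after stimulation. CG42826 had 0, 4, 2 and 10 counts in OreR and 326, 166, 383 and 247 in Orco2 in that order, a ratio of 62.4 (24.2 to 230) and of 31.6 (17.97 to 61.5). For each of these 3 genes every Orco2 library was above every OreR library, which is what the choice of members fixed.

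**Figure D1:**
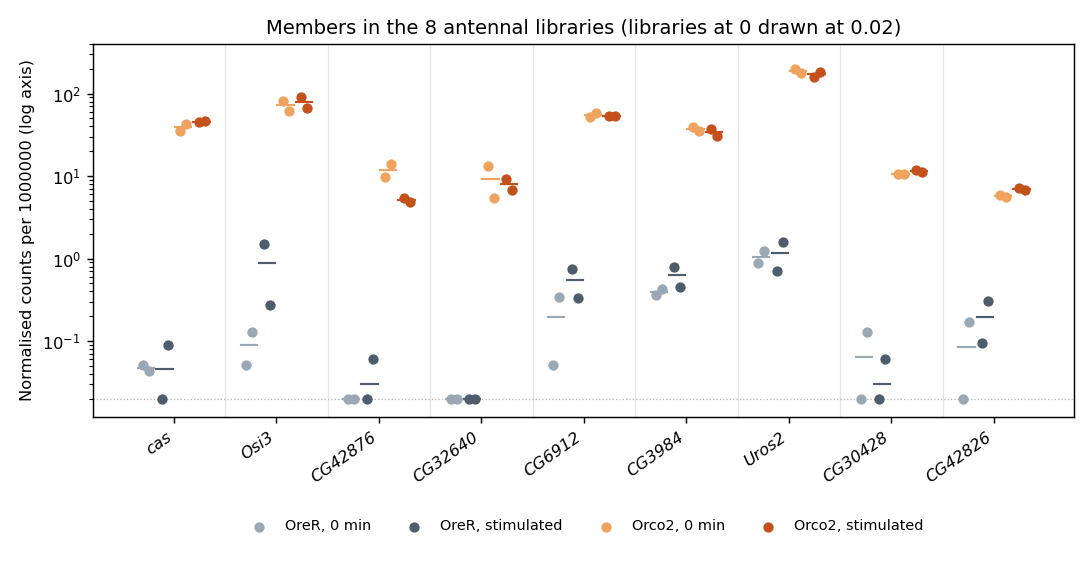
Normalised counts per 1000000 (log axis) of the 9 members in the 8 antennal libraries; points are libraries, short lines are means of 2 libraries, and libraries with no count are drawn at 0.02. The Orco2 libraries lie at 4.91 CPM or higher and the OreR libraries at 1.60 CPM or lower for each member, the pattern the genes were chosen by.

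CG32640 needs a reading of its own, since its reads were shared with another gene. It had 0 counts in all 4 OreR libraries and 718.4, 162.3, 490.3 and 246.6 estimated counts in the Orco2 libraries (0 min B and C, stimulated B and C), at least 149-fold higher at 0 min and at least 148-fold higher after stimulation. CG32641 lies 5.96 kb away on the same strand, and both genes span 519 bp. The estimates of both genes were not whole numbers in 4 of the 4 Orco2 libraries, yet their sum was whole to within 0.01 counts in each of these, as happens when kallisto divides the same reads between 2 transcripts. In OreR the estimates of both genes were whole in 4 of 4 libraries and all these reads went to CG32641.

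CG32641 stood at 24.2 ± 7.39 CPM in OreR and 9.18 ± 2.16 CPM in Orco2 (SD, n = 4 libraries). In edgeR's quasi-likelihood test this was log2 -1.48 ± 0.39 (SE) at 0 min with adjusted p = 0.0921, and -1.31 ± 0.39 after stimulation with adjusted p = 0.10, so it did not pass the threshold of 0.05. It did pass as lower in Orco2, in both conditions, with DESeq2, with limma and with fragment length as a batch, 3 of 6 alternatives that keep all libraries. The 2 genes summed to 24.2 ± 7.39 CPM in OreR, range 17.6 to 33.3, and to 17.8 ± 5.14 CPM in Orco2, range 13.2 to 23.6. The summed level of the pair was therefore not higher in Orco2, and the ranges of the 2 genotypes overlapped. Whether CG32640 was transcribed in Orco2 or whether reads of CG32641 from that strain were assigned to CG32640 was not tested.

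**Figure D2:**
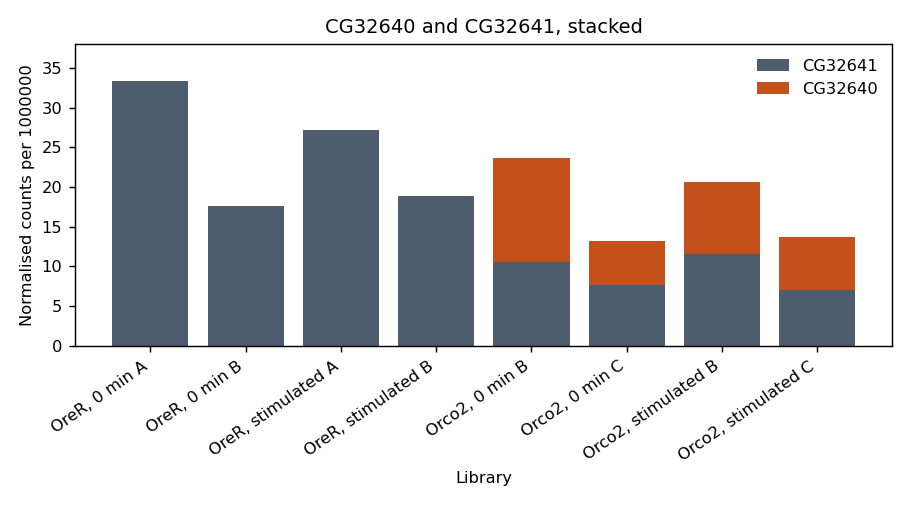
Stacked bars of normalised counts per 1000000 of CG32641 and CG32640 in each antennal library. The OreR bars hold CG32641 only, and the Orco2 bars are divided between both genes while their total stays between 13.2 and 23.6 CPM, within or below the OreR totals of 17.6 to 33.3 CPM.

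The background for these genotype differences was as follows. At 0 min 606 of 11298 genes tested were called at an adjusted p under 0.05 in edgeR (5.36%), 335 of them higher (2.97%) and 271 lower (2.4%) in Orco2. After stimulation 808 were called (7.15%), 468 higher (4.14%) and 340 lower (3.01%). All 9 members passed the filter on low counts, but they did so through the Orco2 libraries, and nothing is read from their own calls.

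How steady the members were within Orco2 was not part of the choice. Over the 4 Orco2 libraries CG6912 had a coefficient of variation of 4.55% and CG30428 of 4.77%, while Uros2, CG3984, CG42826, cas and Osi3 had 8.77% to 17.5%. CG32640 varied by 38.9% and CG42876 by 49.1%, the 2 widest. These 4 libraries include both conditions, and CG42876 was lower in both stimulated libraries. The CG32640 values, here and in TPM, are its part of the reads that kallisto divided between it and CG32641. Per length, in deposited TPM, Uros2 led at 260 to 313 over the Orco2 libraries, followed by Osi3 (68.9 to 99.3), CG32640 (54.1 to 80.5) and CG6912 (47.7 to 59.1). CG3984 came next at 23.7 to 28.5 TPM, then CG30428 (15.5 to 18.1), cas (13.8 to 18.5), CG42876 (5.71 to 18.2) and CG42826 (5.46 to 6.93). In this order Uros2 stood clear of the next gene, and so did CG6912 of CG3984 and CG3984 of CG30428, while the other neighbouring ranges overlapped. At 0 min the Uros2 mean of 309 TPM ranked 426th of the 13821 genes in Orco2 antennae.

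Odor and light left no called change in any member in Orco2 antennae. In Orco2 antennae 0 of 11298 genes (0%) were called between 0 min and stimulated flies in edgeR, with 241 at an unadjusted p under 0.05. CG42876 had the largest fitted difference of the members. It stood at 9.87 and 13.9 CPM at 0 min and at 5.49 and 4.91 CPM after stimulation. The fitted difference, stimulated minus 0 min, was log2 -1.19 ± 0.45 (SE; adjusted p = 1.0), and it was -0.85 between the B libraries and -1.50 between the C libraries. It was the only member with an unadjusted p under 0.05, at rank 193 of all genes tested.

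The other 8 members had fitted stimulation differences from -0.23 ± 0.49 for CG32640 to 0.26 ± 0.69 for CG42826, with cas at 0.21 ± 0.22 and Uros2 at -0.13 ± 0.24 (log2 ± SE; adjusted p = 1.0 each). The median was -0.04 for the 9 members and 0.01 for all genes. The 2 stimulated libraries did not overlap the 2 libraries at 0 min for 4 of the 9 members (cas, CG30428 and CG42826 with the stimulated pair above, CG42876 with it below), against a background of 33.1% of all genes tested. The share of members is near that background.

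**Figure D3:**
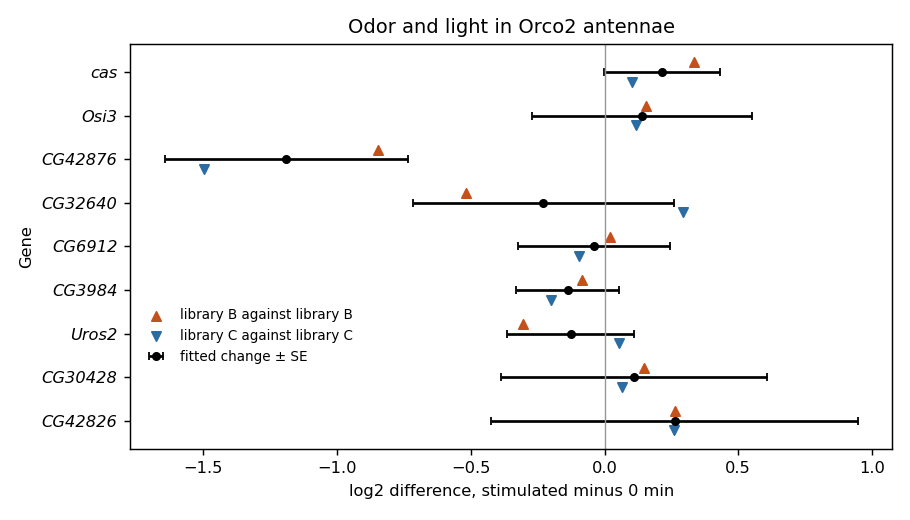
Log2 difference between stimulated and 0 min Orco2 antennae for each member; black points with bars are the fitted change ± SE over 2 against 2 libraries, and triangles are the differences between libraries of the same letter. CG42876 lies at -1.19 with both triangles below 0, and the other 8 fitted values lie between -0.23 and 0.26.

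In OreR antennae 0 of 11298 genes (0%) were called after stimulation, with 186 at an unadjusted p under 0.05. Osi3 had the widest member difference there among those with counts in both groups (fitted log2 3.05 ± 1.15, SE). It was carried by the 32 counts of stimulated A. The members passed the filter on low counts through the Orco2 libraries, so no test is read for them in OreR. The members had 0 to 53 counts in any OreR library, which limits what this comparison could show.

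In OreR brains the members fell into 3 tiers. CG6912 stood at 1.03 to 3.63 CPM over the 23 brain libraries (median 2.10) and CG3984 at 1.0 to 2.41 CPM (median 1.90), so the divergent pair was detected in each brain library. In TPM, CG6912 ranged from 1.87 to 7.09 in brains, above its 0.0514 to 0.744 in OreR antennae and below its 47.7 to 59.1 in Orco2 antennae, and CG3984 ranged from 1.42 to 3.72 in brains against 0.284 to 0.623 in OreR antennae. The brain ranges of both genes did not overlap those of either antennal strain. TPM is set within each library, so levels set across tissues also depend on what else each tissue expresses.

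Uros2 (0.117 to 0.393 CPM), cas (0 to 0.448), Osi3 (0.0384 to 0.445), CG42876 (0 to 0.703) and CG42826 (0 to 0.113) were under 1 CPM in each brain library. The highest of these values was 28 counts of CG42876 in 25-day 0 min B, above the limit of 3 counts. Uros2 had 3 to 26 counts per brain library. Uros2 was lower in brains, at 0.373 to 1.40 TPM, than in Orco2 antennae, and its brain range overlapped its OreR antennal range of 1.17 to 2.73 TPM. CG32640 had 3.31 estimated counts in 1 of 23 brain libraries and CG30428 had 1 count in 1 library, and both were at 0 in the other 22.

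**Figure D4:**
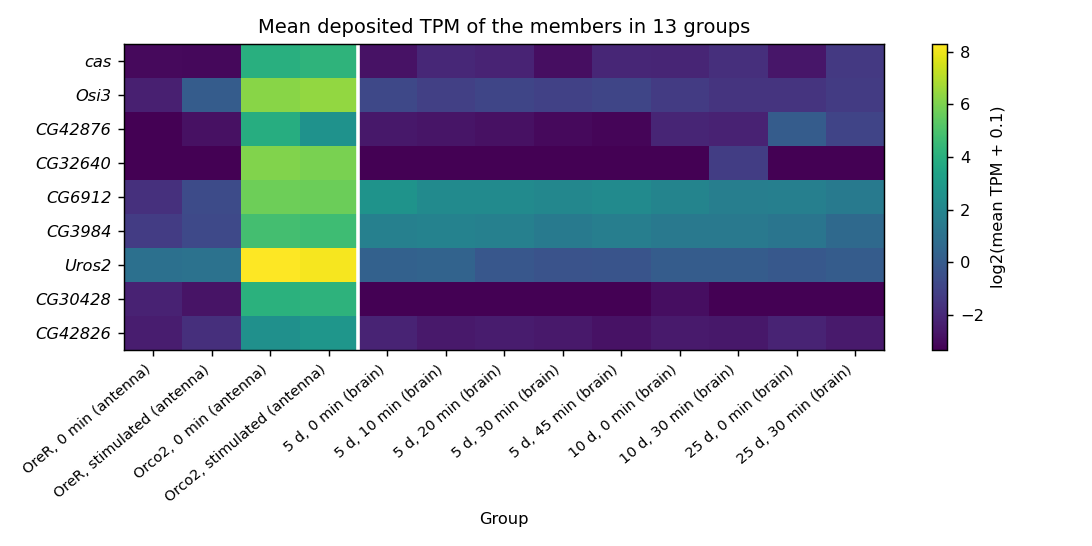
Heat map of log2(mean deposited TPM + 0.1) of the members (rows) in the 4 antennal and 9 brain groups (columns), with a white line between the tissues. The 2 Orco2 columns are the brightest for each row, and CG6912 and CG3984 are the only rows that stay above 0 on this scale in all 9 brain groups.

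The members cas, CG6912, CG3984 and Uros2 passed the low-count filter in brains, 4 of 9, and none was called in any brain comparison. Across the 5 times at 4 to 5 days 0 of 10431 genes (0%) were called in edgeR, with 182 at an unadjusted p under 0.05. Across the 3 ages at 0 min 79 genes were called (0.757%), and with 30 min of stimulation at 10 or 25 days 0 (0%), with 254 at an unadjusted p under 0.05. CG6912 had the smallest age p of the members: it stood at 3.04 ± 0.53 CPM at 4 to 5 days (SD, n = 3), 1.98 ± 0.55 at 10 days (n = 2) and 1.68 ± 0.11 at 25 days (n = 2), with adjusted p = 0.259. The fitted difference between 25 and 4 to 5 days was log2 -0.86 ± 0.31 (SE), which did not pass. CG3984 went from 2.06 ± 0.42 to 1.699 ± 0.31 and 1.48 ± 0.25 CPM over the same ages, with adjusted p = 0.488.

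The members' places in the genome were not used to choose them. In the BDGP6.54 annotation, which uses dm6 coordinates, 5 of 9 lie on arm 3R, which holds 24.5% of the genes measured: cas at 3R:5712975-5716805, Osi3 at 3R:6215832-6218199, CG6912 at 3R:15135138-15137004, CG3984 at 3R:15137148-15139007 and Uros2 at 3R:15788521-15789494. The others lie at 2L:15810571-15812141 (CG42876), X:13178005-13178523 (CG32640), 2R:25251927-25254535 (CG30428) and 3L:10099357-10100881 (CG42826). Orco is also on 3R, at 3R:5407183-5412406. cas lies 300.6 kb and Osi3 803 kb from Orco, and CG6912, CG3984 and Uros2 lie 9723, 9725 and 10376 kb from it.

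Genes around Orco were counted in a window of 500 kb on either side. Among 125 tested genes there that are not members, 4 were called at 0 min (3.20%) against 5.30% of the genes elsewhere, and 7 after stimulation (5.60%) against 7.09%. CG2082 was the most raised of them, at log2 3.19 ± 0.20 (adjusted p = 0.000441), and lies 346 kb from Orco. CRMP, named for the collapsin response mediator proteins of growing axons, was at 1.29 ± 0.11 and Jhbp1 at 1.201 ± 0.13. These 3 genes were called in both conditions under each of the 10 alternatives, leaving out each of 4 libraries included. Within 1000 kb, 12 of 201 were called at 0 min (5.97%) and 14 after stimulation (6.97%). The mutation and anything inherited with it around Orco cannot be told apart by these libraries.

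**Figure D5:**
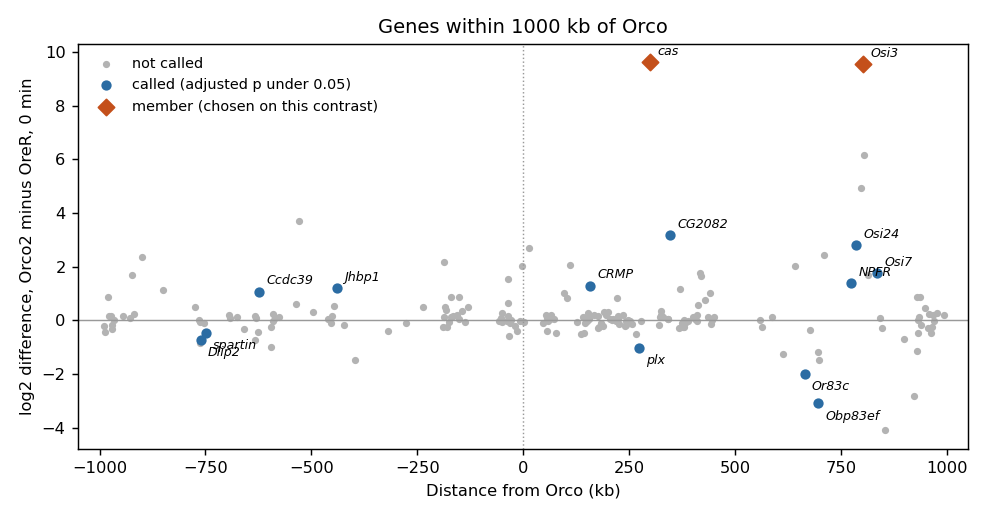
Log2 difference between Orco2 and OreR antennae at 0 min (vertical axis) against distance from Orco in kb (horizontal axis) for genes tested within 1000 kb; grey points were not called, blue points were called at an adjusted p under 0.05, and diamonds are members. The members cas and Osi3 stand at 9.61 and 9.54, while the 12 other called genes lie between -3.09 and 3.19.

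Of the 3 measured genes on either side of each member, 45 in all, 35 could be tested. Of these 35, 4 were called at 0 min (3 higher and 1 lower in Orco2) and 2 after stimulation. Over all genes tested 5.36% were called at 0 min and 7.15% after stimulation, which is also the background for the gene lists below. Srg2 lies 1242 bp from CG42826 and was higher in Orco2, at 0.0645 ± 0.0515 CPM in OreR and 2.78 ± 0.36 CPM in Orco2 over both conditions (SD, n = 4; log2 5.22 ± 1.06, adjusted p = 0.0385 at 0 min, and 5.32 ± 1.04, adjusted p = 0.0308 after stimulation). Osi24, 8154 bp from Osi3, stood at 0.667 ± 0.049 CPM in OreR and 4.93 ± 0.80 CPM in Orco2 (log2 2.81 ± 0.36; adjusted p = 0.00662). NPFR, the receptor of neuropeptide F, was higher in Orco2 by log2 1.37 ± 0.24 at 0 min and was at 0.87 ± 0.23 after stimulation, which did not pass. At 0 min Srg2 and NPFR were no longer called when any 1 of the 4 libraries was left out, and Osi24 was called in 1 of these 4 fits (without Orco2 B).

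The lower gene was plx, 138 bp from cas, which stood at 736 ± 88.3 CPM in OreR and 429 ± 75.0 CPM in Orco2 (log2 -1.02 ± 0.17, adjusted p = 0.0209 at 0 min; -0.56 ± 0.17, adjusted p = 0.110 after stimulation), and was called in 1 of the 4 fits with 1 library left out at 0 min (without OreR A). CG3987 lies 951 bp beyond CG3984 and stood at 0.0850 ± 0.104 CPM in OreR and 4.24 ± 1.23 CPM in Orco2. Its log2 difference in edgeR was 5.88 ± 1.37 at 0 min (adjusted p = 0.0632) and 5.15 ± 1.27 after stimulation (adjusted p = 0.0615), so it did not pass either test. It was called in both conditions by DESeq2, by limma and with fragment length as a batch, 3 of 6 alternatives that keep all libraries. Over all alternatives its log2 difference ran from 2.92 to 10.2 at 0 min and from 2.89 to 10.2 after stimulation. The genes that flank this group of 3 were level: Glys stood at 57.5 ± 4.26 and 58.5 ± 4.22 CPM and CG42788 at 113 ± 17.5 and 107 ± 10.4 CPM.

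Several members overlap other genes, and whether counting used the strand of the reads is not stated. CG30428 lies inside CG9380 on the other strand, and CG9380 had 12 counts over the OreR antennae and 264 over the Orco2 antennae. Their annotated exons share 0 bases, and the estimates of both genes were whole in all 8 antennal libraries. CG42826 lies inside dpr6, whose levels were 8.08 ± 5.25 CPM in OreR and 9.85 ± 1.99 in Orco2 at 0 min (SD, n = 2), and the end of Uros2 shares 22 exon bases with c(3)G, at 12.5 ± 0.16 and 12.8 ± 0.05 CPM. CG32640 lies inside Lgr4, at 2.41 ± 0.37 and 0.844 ± 0.006 CPM. None of these 4 host or partner genes was called at 0 min or after stimulation (CG9380 at log2 4.71 ± 1.702, adjusted p = 0.218 at 0 min in edgeR). CG6912 (same strand) and CG3984 (opposite strand) also overlap the noncoding gene asRNA:CR45600, at 3R:15136985-15140121, which was not among the measured genes. Its span covers CG3984 and reaches into CG3987, and its part in the counts of these genes was not tested.

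Of the 9 members, 4 had 2 measured transcripts. CG30428 kept the same division, with 67.1% to 68.2% of its counts on CG30428-RA in the 4 Orco2 libraries. CG42876-RA took 72.5% and 70.2% of the CG42876 counts at 0 min and 44.4% and 51.2% after stimulation, so the share of that transcript was lower in both stimulated libraries. cas-RA took 45.4% and 65.6% at 0 min and 35.2% and 58.5% after stimulation, a spread that followed the library letter more than the stimulus. Osi3-RB held 73.4% to 90.2%.

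Annotated transposable elements lay within 5000 bp of 4 of the 9 members (44.4%) and of 23.5% of the genes measured on the main arms. A Juan element lies 32 bp from CG6912 and a Burdock element 411 bp from CG3984, CG30428 overlaps INE-1 elements, and an INE-1 element lies 1999 bp from CG42826. These positions come from the reference genome, and insertions of the 2 strains are not known from these data.

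Of the 24 Osiris genes listed beside Osi3, 22 were measured and 10 tested. Osi24 and Osi7 (log2 1.77 ± 0.33, adjusted p = 0.0277 in edgeR) were called higher in Orco2 at 0 min and again after stimulation, and none was called lower. Over all alternatives the Osi7 difference at 0 min ran from log2 1.48 to 1.99. Its call at 0 min was lost when any 1 of the 4 libraries was left out. After stimulation it was lost in most such fits. Osi11 (-4.10 ± 2.19), Osi19 (-2.83 ± 1.66), Osi17 (-0.69 ± 1.29) and Osi9 (-0.28 ± 0.91) were fitted lower at 0 min and not called. Osi19 stood at 0.386 to 1.18 CPM in OreR and 0 to 0.109 CPM in Orco2. Osi11 stood at 0.0858 to 0.514 CPM and 0 to 0.0339 CPM. Osi2, the gene next to Osi3, was at log2 4.91 ± 1.09 with adjusted p = 0.0533. It was called at 0 min in 5 of the 6 alternatives that keep all libraries and in 0 of the 4 fits with 1 library left out. Osi4, 119 bp from Osi3 on its other side, was at 0 CPM in the OreR antennae and at 0.149 to 0.382 CPM in the Orco2 antennae, which did not pass (adjusted p = 0.329 at 0 min and 0.224 after stimulation). Osi8, the highest of the listed Osiris genes in antennae, stood at 146 to 174 CPM in OreR and 150 to 186 CPM in Orco2. The median log2 difference was 0.88 for the 10 tested Osiris genes and 0.03 for all genes.

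Among 13 temporal and patterning factors of neural stem cells listed beside cas, 11 were tested and 1 was called: slp2 fell by 0.63 on the log2 scale at 0 min (SE 0.11; adjusted p = 0.0237) and by 0.49 after stimulation, and it was called in 0 of the 4 fits with 1 library left out in either condition. The grainyhead gene grh, which follows cas in the embryonic series, stood at 120 ± 37.7 CPM in OreR and 108 ± 15.7 CPM in Orco2. The Pdm genes nub and pdm2, which come before it, were at 46.0 ± 6.997 and 47.3 ± 1.79 CPM and at 12.1 ± 1.64 and 13.4 ± 0.23 CPM (SD, n = 2 each).

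All 9 listed heme genes were tested, and 2 were called at 0 min and after stimulation. Pbgs, the porphobilinogen synthase gene, was lower in Orco2 (log2 -0.86 ± 0.15; adjusted p = 0.0244), and Urod, whose enzyme acts on the product of uroporphyrinogen III synthase, was higher (0.66 ± 0.14; adjusted p = 0.0395). With 1 library left out at 0 min, Urod was called in 0 of 4 fits and Pbgs in 1 (without Orco2 C). Uros1, the other gene named for the synthase, stood at 15.6 to 19.4 CPM in OreR and 9.40 to 11.9 CPM in Orco2 (log2 -0.74 ± 0.18; adjusted p = 0.0775), which did not pass. Uros2 at 161 to 199 CPM exceeded Uros1 in each Orco2 library, and the reverse held in each OreR library. Since Uros2 was chosen for its own strain difference, this switch of order carries no test.

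Levels of genes listed for other cell types differed between the antennal libraries as well. At 0 min 2 of 5 tested fat body genes (Lsp2 and to) were called higher and 1 of 8 Johnston's organ genes was called, nompA, which was lower in Orco2 (log2 -4.15 ± 0.16), while the other 7 had differences from 0.10 to 0.86. Summed fat body genes ran from 1751 to 2301 CPM in OreR and from 2509 to 3311 in Orco2, and Johnston's organ genes from 1089 to 1382 and from 1558 to 2098, with no overlap. Most of the fat body sum was the gene to, at 1401 to 1607 CPM in OreR and 2209 to 2745 CPM in Orco2. The sum therefore mainly follows this 1 gene, whose median in brains was 2.00 CPM. The next largest part, apolpp, was at log2 -0.01 ± 0.43 at 0 min and -0.70 ± 0.43 after stimulation. Fbp1 and Fbp2, also on the fat body list, were at no more than 0.154 CPM in any antennal library. Dhc93AB was the largest part of the Johnston's organ sum, at 424 to 650 CPM in OreR and 914 to 1301 CPM in Orco2. With 1 library left out at 0 min, nompA was called in 4 of 4 fits and Lsp2 and to in 0. After stimulation 4 of 8 Johnston's organ genes were called, nompA lower and Dhc93AB (log2 1.43 ± 0.21), btv (0.69 ± 0.15) and wtrw (0.58 ± 0.11) higher. Of 6 glial genes 1 was called, wrapper, higher, and of 8 muscle genes 2, TpnC41C and Mlp60A, lower. The calls of these glial and muscle genes were lost in most fits with 1 library left out. With 1 library left out after stimulation, Dhc93AB was called in 2 of 4 fits and btv and wtrw in 0. Photoreceptor genes, markers of the eye, summed to 1009 to 9216 CPM in OreR and 3070 to 12250 CPM in Orco2, with 0 of 10 called. Testis genes reached 33.7 CPM in OreR and 21.5 CPM in Orco2, and male accessory gland genes no more than 2.73 CPM. The part of these cell types in the members' levels was not tested.

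The members are not the only genes with such levels. Their own values span bounds of at most 1.60 CPM in each OreR library and at least 4.91 CPM in each Orco2 library, and 19 genes lay inside these bounds, the 9 members and 10 others. The others were ppk27, a pickpocket channel gene, fuss, CG18180, Septin5, wntD, a Wnt family gene, Lst, which encodes the hormone limostatin, CG15515, Vajk2, CG45075 and mtt. With the strains exchanged, 19 genes lay inside the same bounds. The members CG42876 (at least 4.91 CPM in Orco2) and Uros2 (at most 1.60 CPM in OreR) stood at the edges, and CG3987 (2.92 CPM or more in Orco2), CG10559 and Lmx1a were just outside. Of the 10 others, fuss and mtt were present in brains, with medians of 14.6 and 126 CPM, whereas wntD and CG15515 had medians of 0.

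Over the 13 group means of log2(CPM + 0.1), the 36 pairs of members had Pearson's r from 0.789 to 0.996 (median 0.941), with no p because the genes were chosen together. Among 10492 genes compared, CG18586 was among the 3 closest to 5 members and CG42867 and CG15547 to 4 each. CG18586 had 0 counts in all OreR antennae and 0.763 to 1.24 CPM in Orco2, and CG42867 had 0 and 0.848 to 1.94 CPM. CG15547 stood at 2.49 to 3.39 CPM in OreR and 24.3 to 28.0 in Orco2. Closest to CG6912 and to CG3984 was CG11891 (r = 0.97 for each), at 14.1 to 19.8 CPM in OreR antennae, 58.2 to 73.3 in Orco2 antennae and a median of 17.8 in brains. Closest to Uros2 was Nepl19, at 2.82 to 3.82 CPM and 28.4 to 32.4 CPM. The groups share strains and libraries, so the likeness is a description of these 13 groups.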

How the data were processed

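RNA-seq libraries were made from total RNA with the TruSeq RNA kit v2, per the labels' protocols. For every library the authors deposited a table of 30490 transcripts that gives the estimated count and TPM (transcripts per 1000000) of each one, as the file headers name them. The submitters' processing notes list kallisto 0.43.1, CASAVA 1.7 and edgeR 3.18.1, and dm6 and GRCm38 as builds. Pseudoalignment divides reads that fit several transcripts, which affects near copies. The strand setting is not given in the sources used here.

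Here, estimated counts were summed per gene through the Ensembl BDGP6.54 annotation (30255 transcripts matched, 13821 genes; the rest held 0.396 to 0.514% of counts) and rounded. Antennae and brains were fitted separately with edgeR 4.0.16 (R 4.3.3; TMM, filterByExpr, robust quasi-likelihood F-test, Benjamini-Hochberg adjustment, threshold 0.05), using all groups of a tissue and no covariate. The fits were tested on simulated data. CPM are TMM-normalised. Ratios with exact 95% counting intervals used pooled counts. Alternatives were DESeq2 1.42.0, other size factors, no filter, the compared groups alone, limma 3.58.1 on log2(TPM + 0.5), fragment length as a batch, the replicate letter as a block, and leaving out each library.

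The members and lists were chosen with earlier results of these data known. Genes named are the members, their 3 neighbours on either side, called genes near Orco, list genes with the smallest p, genes inside the members' bounds and the 3 genes closest to each member; others (CG32641 in the sum, host genes, Osi8, grh, nub, pdm2) were named after their values were seen. Protein matches were not run, since no protein sequences were used here. Replicates of no group were duplicates (chi-square per degree of freedom 23.8 or more). Within each antennal genotype the library letter and the fragment length used by kallisto coincide, but letter B stands for different lengths in the 2 genotypes. The lengths were 301 for A and 354 for B in OreR, and 298 for B and 354 for C in Orco2. Osi10a, Osi10b and Rh6 were not found among the measured genes. The HDAC6 mutant brains that the series describes were not analysed here.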

Additional observations from a re-analysis of the deposited data

How the results depend on the processing

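No member was called for stimulation in Orco2 antennae under any of 11 alternatives, and none of the 4 members tested in brains under any of its alternatives (lowest adjusted p = 0.0835 over 201 values). For CG42876 the Orco2 stimulation difference ran from log2 -1.42 to -0.92 (adjusted p 0.422 to 1.0). Counts of called genes moved more. For genotype at 0 min (606) they were 1112 with DESeq2, 311 with the compared groups only, 1372 with fragment length as a batch and 264 to 286 without 1 library. For genotype after stimulation (808) they were 1548, 423, 2186 and 260 to 542. For stimulation in Orco2 antennae (0) they were 30 with DESeq2, 10 with fragment length and 11 with the replicate block, and in OreR antennae (0) 9, 2 and 1, with 1 without the filter. In brains DESeq2 called 4 across times (0 in edgeR). Across ages (79) the counts were 604 with DESeq2, 33 without the filter, 0 with the compared groups only, 51 with limma, 20 with fragment length, 1540 with the replicate block and 0 to 1844 without 1 library, the highest without 25-day 0 min A. With stimulation at 10 or 25 days (0) they were 11 with DESeq2, 1 with fragment length, and 0 to 188 without 1 library, the highest without 10-day 30 min B. The cause was not tested. Of the neighbours of members, 4 were called at 0 min and 0 to 10 under the alternatives, and within 500 kb of Orco 7 were called after stimulation and 3 to 18.

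The letters were not taken to pair the libraries, since some same-letter pairs deviated together and others did not (44 of 82 brain pairs over 0.1): same-letter libraries had correlated deviations of 0.73 in OreR and 0.02 in Orco2 antennae and -0.55 to 0.88 in brains. At 10 days it was -0.20, and a block with those letters crossed, chosen after seeing the data, called 0 genes. With 2 libraries per antennal group, and OreR levels of most members at the limit of detection, the size of the strain ratios is loosely bounded.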
